A study of Mus musculus with 6 samples.

Results

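The potassium channel genes were taken as every row of the deposited gene tables whose symbol starts with Kcn, the prefix of potassium channel subunits in the mouse. Of 35415 genes in the tables, 94 were such genes, falling into 21 subfamilies by the letters that follow the prefix. The 4 antisense or opposite-strand symbols with the same start, Kcnd3os, Kcnmb4os1, Kcnmb4os2 and Kcnq1ot1, were left out. The lateral septum (LS), a forebrain nucleus linked to feeding and motivated behavior, was taken from wild-type (WT) female C57BL/6 mice that had arrived at about 8 weeks of age and had been kept for 1 week before the diets began. For 12 weeks the control group ate plain maintenance feed, and the olanzapine group ate the same feed with olanzapine, a second-generation antipsychotic, at 50 mg per kg. Each RNA-seq library was made from the tissue of 3 pooled mice, and each group had 3 libraries, so n = 3 pools per group throughout. The spread between single mice is averaged out within a pool and is not known.

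Potassium channels let potassium leave the cell, which sets the resting potential of a neuron, ends each action potential and fixes how fast the next can follow. Voltage-gated channels open on depolarization, inward rectifiers hold the membrane near rest, two-pore channels give a standing leak, and other channels open on intracellular calcium or sodium. Many LS neurons release GABA and carry receptors that act through G proteins, and G protein-gated inward rectifiers are a well-known target of such receptors. Glia and the choroid plexus have potassium channels of their own, which take up or secrete potassium.

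The total counts were between 39406866 and 39868872 in the control libraries and between 38208153 and 38767373 in the olanzapine libraries, so depth was nearly even. All 8 LS neuron markers examined, such as Zic1, Trpc4 and Crhr2, were detected in every library, with a summed FPKM (fragments scaled to transcript length and to the mapped reads of the library) of 323 to 377, of which Sst alone gave 186 to 243. The members were not even between libraries, and their median log2 fold change was -0.36. Zic1 was at 67.1, 53.9 and 52.7 FPKM in the controls and 31.6, 43.7 and 51.4 FPKM in the olanzapine pools, so the groups did not overlap (log2 fold change -0.48, adjusted p = 0.20, edgeR). None of the 8 passed the test. Markers of other cell types were uneven too. The 6 cortical glutamatergic markers, Slc17a7 and Neurod6 among them, summed to 280 FPKM in olanzapine replicate 1 against 9.50 to 30.8 in the other 5 libraries. The 11 choroid plexus markers summed to 48.2, 1901 and 5386 FPKM in control replicates 1 to 3 and to 807, 3469 and 30.8 FPKM in olanzapine replicates 1 to 3. Of the 11 hepatocyte markers, 10 were higher in the olanzapine group at an adjusted p under 0.05, and the 10 that are on no other list summed to 138 to 182 FPKM there against 7.50 to 13.5 FPKM in the controls. Of 6 nuclear-retained RNAs, 4 were higher in the olanzapine group by the same measure, with sums of 652 to 742 FPKM against 311 to 370 FPKM. No marker on any of these lists was at 0 in every library.

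All 94 potassium channel genes matched a protein-coding gene of GENCODE on the GRCm38 genome, spread over 19 chromosomes. Their lengths ran from 1.54 kb to 1135 kb with a median of 30.8 kb, and Kcnip4 was the longest. The Kcn genes together took 0.420% to 0.458% of all counts in the control libraries. In the olanzapine libraries the shares were 0.517%, 0.432% and 0.417%, so that replicate 1 lay above every control and replicate 3 just below the lowest.

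Levels were compared between genes only as FPKM, which is per length. The length behind the deposited FPKM, as implied by the counts and FPKM of 93 of the genes, was at the median 1.103 times the GENCODE exon length, and in 5 genes it was over 5 times that length. In Kcnip4 it was 165 kb against 3.63 kb of exon, and in Kcnd2 it was 98.3 kb against 5.15 kb, so the FPKM of these genes is low for their counts. Averaged over the 6 libraries, 20 of the 94 genes were at 10 FPKM or more, 42 were between 1 and 10 FPKM, and 32 were below 1 FPKM. Per GENCODE exon length these numbers were 24, 44 and 26, with Kcnip4 at 15.2 and Kcnd2 at 17.5 in place of 0.34 and 0.92. That scaling takes every counted read to lie in GENCODE exons, which was not examined, so these levels may be too high. The 10 highest genes held 46.9% of the summed Kcn FPKM. The highest FPKM was that of Kcnip2, a calcium-binding partner that brings A-type channels to the membrane. Kcnip2 was at 47.9, 53.2 and 43.7 FPKM in the controls and 46.1, 60.3 and 65.5 FPKM in the olanzapine pools. Kcnj10, the inward rectifier of astrocytes, was also among the highest at a mean of 42.1 FPKM. Per GENCODE exon length Kcnj10 was the highest at 54.8, with Kcnip2 at 48.4. The beta subunits Kcnab1 and Kcnab2, cytosolic partners of Shaker-type channels, had means of 38.3 and 25.8 FPKM. Per GENCODE exon length the order of these subunits turned, with Kcnab1 at 20.5 and Kcnab2 at 45.1. In the ranges of their libraries these leading genes ran into each other, since Kcnip2 spanned 43.7 to 65.5 FPKM and Kcnj10 spanned 35.7 to 48.4 FPKM. Behind them, Kcnf1 (18.9 FPKM), Kcna1 (18.2 FPKM), Kcna6 (17.2 FPKM), Kcnj9 (15.2 FPKM) and Kcnc1 (14.5 FPKM) lay close together, with library ranges that overlapped.

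By subfamily, the inward rectifiers (Kcnj) held the largest share of the summed FPKM at 17.3%, followed by the KChIP partners (Kcnip) at 13.1%, the beta subunits (Kcnab) at 11.6%, the M-current family (Kcnq) at 9.99% and the Shaker family (Kcna) at 9.35%. The Kcnj share rested mostly on Kcnj10, Kcnj9 and Kcnj4. The two-pore channels (Kcnk), with 14 members, held 6.76%. Per GENCODE exon length Kcnj again held the largest share at 23.3%, followed by Kcnip (12.2%), Kcna (10.6%), Kcnk (9.09%) and Kcnab (9.04%), while Kcnq held 5.50%.

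**Figure D1:**
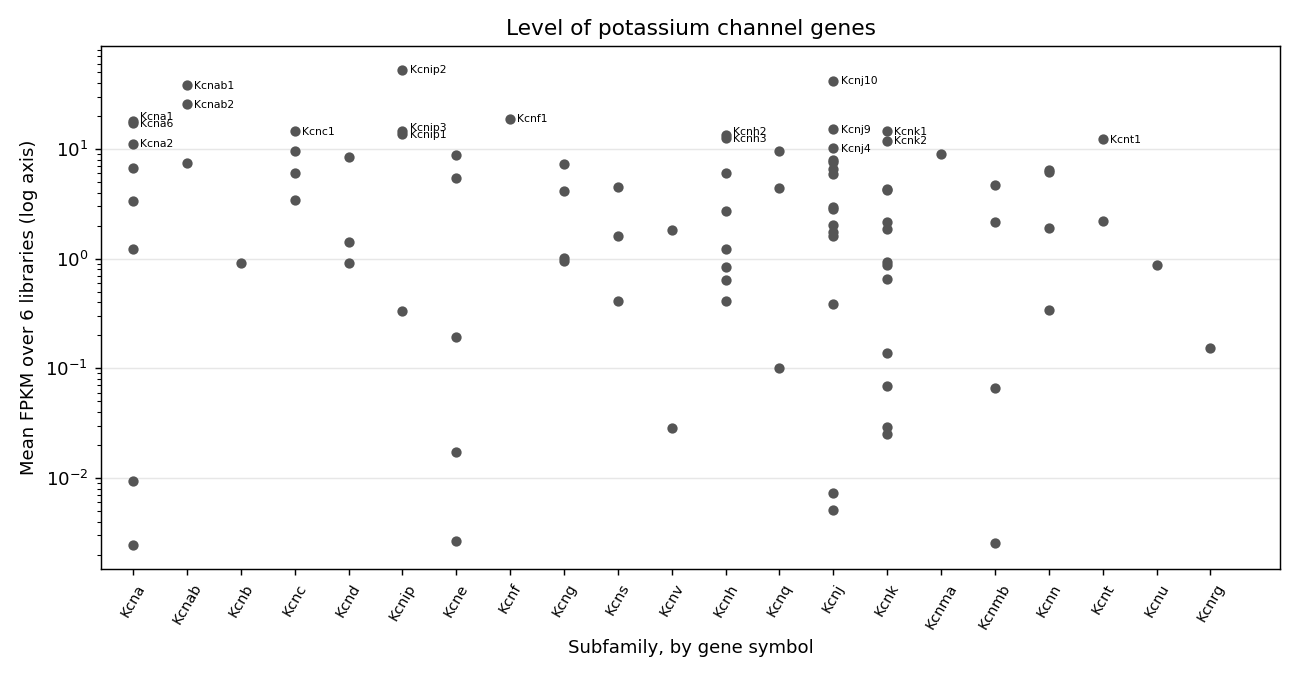
Mean FPKM over the 6 libraries (log axis) of 90 potassium channel genes, 1 point a gene, set out by subfamily, with 18 of the 20 highest genes named. Kcnip2, Kcnj10 and Kcnab1 lie highest, at means of 38.3 to 52.8 FPKM. Kcnk16, at 0 in every library, has no place on a log axis.

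Of the 94 genes, 13 had too few counts to be tested. These were Kcna7, Kcna10, Kcne1, Kcne3, Kcnj1, Kcnj15, Kcnk7, Kcnk15, Kcnk16, Kcnk18, Kcnmb3, Kcnrg and Kcnv2, several of them known from heart, kidney, ear or pancreas. The highest count of any of them in a library was 23, in Kcnrg, which had 6, 5 and 6 counts in the controls and 23, 7 and 18 in the olanzapine pools. Kcnk16 had no count in any library. No test of the groups is given for these 13 genes.

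In the comparison of olanzapine with control, few potassium channel genes passed the test. Of 81 tested, a single gene passed an adjusted p under 0.05 in edgeR's quasi-likelihood test. This was Kcnj5, which encodes a subunit of the G protein-gated inward rectifier (GIRK) channels, and its normalized count was 46.8% lower in the olanzapine group. No Kcn gene was called higher, where 1.83% of all 17255 tested genes were, and the 1 called lower stood against 0.493% of all tested genes. No Kcn gene also passed a log2 fold change beyond 1 in size, which together with the adjusted p was met by 1.01% of all tested genes. An unadjusted p under 0.05 was reached by 13 Kcn genes (5 higher and 8 lower), or 16.0%, close to the 17.6% of all tested genes. DESeq2, the tool of the study, called 2 higher (Kcnh4 and Kcnt1) and 4 lower (Kcna3, Kcnh5, Kcnj5 and Kcnn3) of 93 fitted Kcn genes, against 2.45% and 1.76% of all genes it fitted. In a bulk sample, fewer cells of a type and less RNA per cell cannot be told apart, so each difference here is one of abundance in the tissue.

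The log2 fold changes of the 81 genes ran from -0.92 (Kcna3) to 1.30 (Kcnk4), with 44 above 0 and 37 below. Their median was 0.03, beside 0.0039 over all tested genes, and their median size was 0.21, beside 0.16. Of the 81 genes, 67 lay within 0.5 of 0 on the log2 scale. The median standard error was 0.20, so for a gene of typical precision a change well under 0.5 could not be told from the spread between pools. In 6 genes every olanzapine pool lay above every control pool (Kcnh4, Kcnip4, Kcnn2, Kcnt1 and Kcnu1 among them), a pattern that 13.3% of all tested genes had. The reverse held in 10 genes (Kcna3, Kcng2, Kcnh2, Kcnh5, Kcnj5, Kcnj10, Kcnj16, Kcnk5, Kcnmb1 and Kcnn3), against 11.0% of all tested genes.

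**Figure D2:**
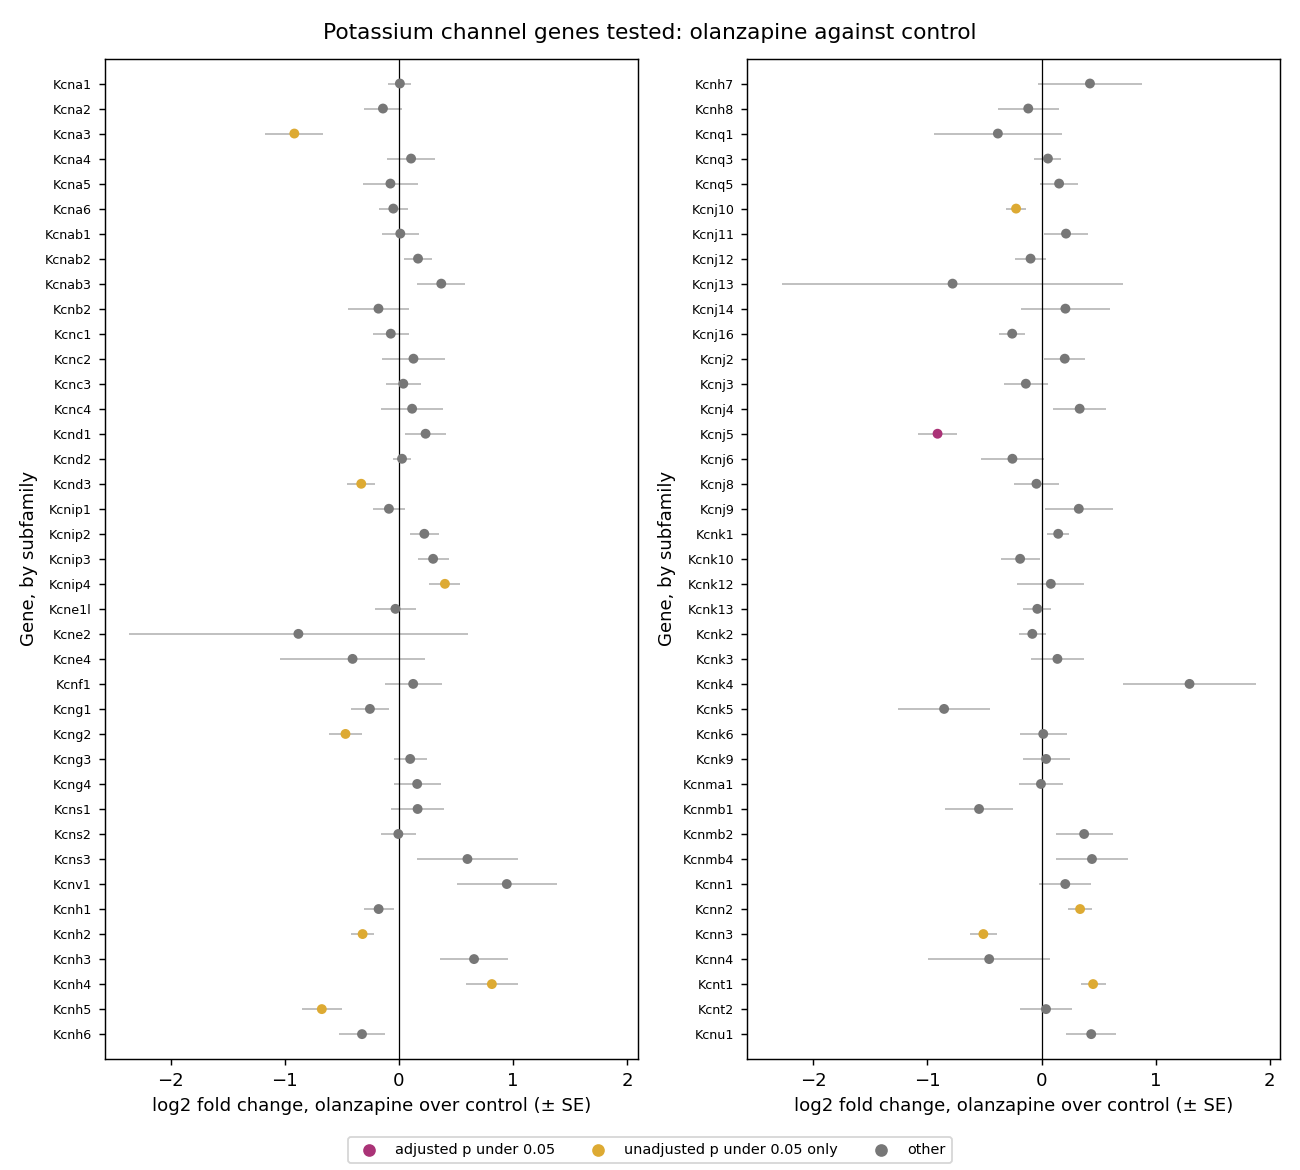
The log2 fold change of olanzapine over control (horizontal axis, bars ± SE) of 78 of the 81 tested potassium channel genes, by subfamily, from 3 pools per group. Kcnj5 is the only point past an adjusted p of 0.05, and the other 11 plotted genes with an unadjusted p under 0.05 lie on both sides of 0.

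Among the inward rectifiers, the GIRK family carries the slow inhibition that follows activation of G protein-coupled receptors, and its subunits Kcnj3, Kcnj5, Kcnj6 and Kcnj9 combine into tetramers. Kcnj5 lies at chr9:32314707-32344350 on the minus strand. Its normalized counts were 453, 453 and 432 in the controls and 183, 279 and 249 in the olanzapine pools. The controls were tightly grouped, and every olanzapine pool lay well below all of them. The group means were 446 ± 11.9 (SD, n = 3) and 237 ± 48.7 (SD, n = 3), which gives -0.91 ± 0.17 (SE) on the log2 scale (edgeR quasi-likelihood adjusted p = 0.038). The call rested on small margins. With olanzapine replicate 1 left out Kcnj5 was still called (log2 fold change -0.76, adjusted p = 0.028 by edgeR), whereas leaving out any of the other 5 libraries put its adjusted p between 0.055 and 0.16, and limma gave 0.088 on log2(FPKM + 0.1) and 0.077 on log2(FPKM + 1) without an FPKM filter. Some LS neuron markers had values of the same direction. Zic1, the transcription factor, had 16964, 13443 and 13080.0 normalized counts in the controls and 7947, 10467 and 12722 in the olanzapine pools, lowest in olanzapine replicate 1 as Kcnj5 was. The log2 fold changes of Trpc4, Zic4 and Dgkg were -0.49, -0.38 and -0.37, whereas Sst was at 0.19 and Nts at 0.01. The part of these markers in the value of Kcnj5 was not tested. At a mean of 1.76 FPKM, Kcnj5 was also the lowest of the 4 GIRK subunits in level.

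The other GIRK subunits were more abundant and did not pass the test. Kcnj9 averaged 15.2 FPKM, Kcnj3 averaged 5.92 FPKM and Kcnj6 averaged 2.81 FPKM. Kcnj6 had 3189, 2445 and 2451 normalized counts in the controls and 3415, 1523 and 1839 in the olanzapine pools, with the highest value of all in olanzapine replicate 1 and the lowest pair in the other olanzapine pools. The log2 fold change was -0.25 over all pools (adjusted p = 0.69, edgeR) and -0.68 without olanzapine replicate 1 (adjusted p = 0.039, edgeR). Kcnj3 had the same layout, with 3003, 2624 and 2520.0 normalized counts in the controls and 3348, 1915 and 2146 in the olanzapine pools. Its log2 fold change was -0.14 over all pools and -0.42 without that library (adjusted p = 0.77 and 0.061, edgeR). A noncoding gene on the opposite strand shares 31.1% of the exon length of Kcnj3, and since the strand setting of the counting is not given in the sources used here, reads of the pair cannot be told apart. Kcnj9 had 1940.4, 2041 and 2183 normalized counts in the controls and 4088, 1959 and 1686 in the olanzapine pools. Only olanzapine replicate 1 stood out, at 1.87 times the highest of the other libraries, and the log2 fold change went from 0.33 to -0.17 without it.

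The RefSeq promoter of Kcnj5 is shown because it is the gene that passed the test, and those of Kcnj13 and Kcne2 because their counts varied most between libraries. Each is the 250 bases before the annotated start on GRCm38.p6, 5′ to 3′ on the strand of the gene, with the dinucleotide CG in capitals. They lie at chr9:32344345-32344594 (minus strand), chr1:87394730-87394979 (minus strand) and chr16:92292139-92292388 (plus strand). The search was for the letters CG, which read the same on both strands.
Kcnj5: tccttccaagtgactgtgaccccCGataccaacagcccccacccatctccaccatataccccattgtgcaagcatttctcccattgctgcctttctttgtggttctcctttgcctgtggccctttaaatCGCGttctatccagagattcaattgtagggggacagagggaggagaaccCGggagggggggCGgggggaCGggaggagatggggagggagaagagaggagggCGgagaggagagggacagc
Kcnj13: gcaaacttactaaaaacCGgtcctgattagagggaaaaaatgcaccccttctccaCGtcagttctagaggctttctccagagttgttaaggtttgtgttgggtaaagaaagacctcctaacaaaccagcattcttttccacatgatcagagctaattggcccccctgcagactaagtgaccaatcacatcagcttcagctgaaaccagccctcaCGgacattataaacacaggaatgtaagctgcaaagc
Kcne2: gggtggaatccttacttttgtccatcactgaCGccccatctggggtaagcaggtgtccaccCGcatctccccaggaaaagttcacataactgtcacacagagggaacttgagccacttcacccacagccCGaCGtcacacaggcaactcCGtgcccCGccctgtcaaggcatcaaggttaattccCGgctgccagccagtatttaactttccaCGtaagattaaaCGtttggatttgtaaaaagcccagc
The Kcnj5 window held 7 CG and ended in a run rich in g and a. As many CG or more were found in 46.3% of all 32851 RefSeq promoter windows of this length, so the number is an ordinary one. The Kcnj13 window held 3 CG (as many or more in 71.0% of windows), and the Kcne2 window held 9 (40.3%). Kcne2 has a further RefSeq start, whose window held a single CG. Promoter entries were at hand for 69 of the 94 Kcn genes, too few for a statement on the class.

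The glial inward rectifiers clear potassium around active synapses. Kcnj10 lies at chr1:172341210-172374085, next to Kcnj9, with 11.9 kb between the genes. Its normalized counts were 13575, 11395 and 12465 in the controls and 9951, 11239 and 10888 in the olanzapine pools. The highest olanzapine pool lay just below the lowest control, and the log2 fold change was -0.22 ± 0.09 (SE, edgeR adjusted p = 0.24). Kcnj16, its usual partner subunit, had 1645, 1213 and 1312 against 1149, 1163 and 1177 normalized counts and a log2 fold change of -0.26 (adjusted p = 0.30, edgeR). The groups of both genes were close to touching. The 8 astrocyte markers summed to 923 to 981 FPKM in the controls and 826 to 978 FPKM in the olanzapine pools, lowest in olanzapine replicate 1, where Kcnj10 and Kcnj16 were lowest too. Among the 8, Aqp4 (log2 fold change -0.20) and Slc1a2 (-0.32) were lower in every olanzapine pool than in any control. Slc1a3 was at -0.25, Gja1 at -0.23, Gfap at -0.14, S100b at 0.0004, Aldoc at 0.06 and Aldh1l1 at 0.10, with overlapping groups. The part of these markers in the values of Kcnj10 and Kcnj16 was not tested.

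The strong inward rectifiers of neurons, Kcnj2, Kcnj4 and Kcnj12, gave log2 fold changes of 0.20, 0.33 and -0.10, with overlapping groups. Kcnj11 and Kcnj8, the pores of ATP-sensitive channels in neurons and in pericytes, gave 0.21 and -0.04. Across the 13 tested Kcnj genes, 5 estimates were above 0 and 8 below, with a median of -0.10, and Kcnj5 was the 1 that passed.

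The calcium-activated SK channels produce the afterhyperpolarization that follows a burst of spikes, and the values of their abundant members lay on opposite sides of 0. Kcnn3, at chr3:89520164-89675132 on the plus strand, had 2347, 2231 and 1953 normalized counts in the controls and 1326, 1504 and 1757 in the olanzapine pools. All 3 olanzapine pools lay below all controls. The log2 fold change was -0.51 ± 0.12 (SE), and the adjusted p of 0.072 by edgeR missed the threshold, while DESeq2 gave 0.0047. Kcnn2 had 1174, 1161 and 976 against 1546, 1326 and 1315 normalized counts, with every olanzapine pool above every control and a log2 fold change of 0.34 ± 0.10 (SE, edgeR adjusted p = 0.15). In level the pair was alike, at 6.22 FPKM for Kcnn3 and 6.49 FPKM for Kcnn2. Kcnn1 (0.21) and Kcnn4 (-0.46, at a mean of 0.34 FPKM) had overlapping groups. The difference between the changes of Kcnn2 and Kcnn3 was not tested.

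Kcnma1, the pore of the large-conductance BK channel, had 6232, 6386 and 5897 normalized counts in the controls and 8408, 4939 and 5106 in the olanzapine pools. The olanzapine pools thus lay on both sides of the controls, and the log2 fold change was -0.0049 with all pools and -0.30 without olanzapine replicate 1 (adjusted p = 0.99 and 0.062, edgeR). Of its beta subunits, Kcnmb4, the neuronal form, had 844, 902 and 887 against 1943, 823 and 814, and Kcnmb1 had 378, 454 and 437 against 155, 361 and 353 normalized counts. Olanzapine replicate 1 was the extreme library of both, as the highest for Kcnmb4 and the lowest for Kcnmb1. Kcnmb4 shares 20.9% of its exon length with the antisense gene Kcnmb4os2 and 10.7% with Kcnmb4os1, so part of its count is uncertain.

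The sodium-activated channel Kcnt1, at chr2:25863734-25918273 on the plus strand, had 3875, 3712 and 3060.3 normalized counts in the controls and 5324, 4408 and 4832 in the olanzapine pools. Every olanzapine pool was above every control, with a log2 fold change of 0.45 ± 0.11 (SE) and the smallest p among the genes with a positive change (adjusted p = 0.084, edgeR). DESeq2 gave an adjusted p of 0.0096. Its relative Kcnt2 showed no such separation, with a log2 fold change of 0.04. Kcnu1, best known as the potassium channel of sperm, was at a mean of 0.87 FPKM and came out at 0.44 on the log2 scale (adjusted p = 0.35, edgeR), with olanzapine pools of 173, 112 and 136 above controls of 107, 97.7 and 106 normalized counts.

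**Figure D3:**
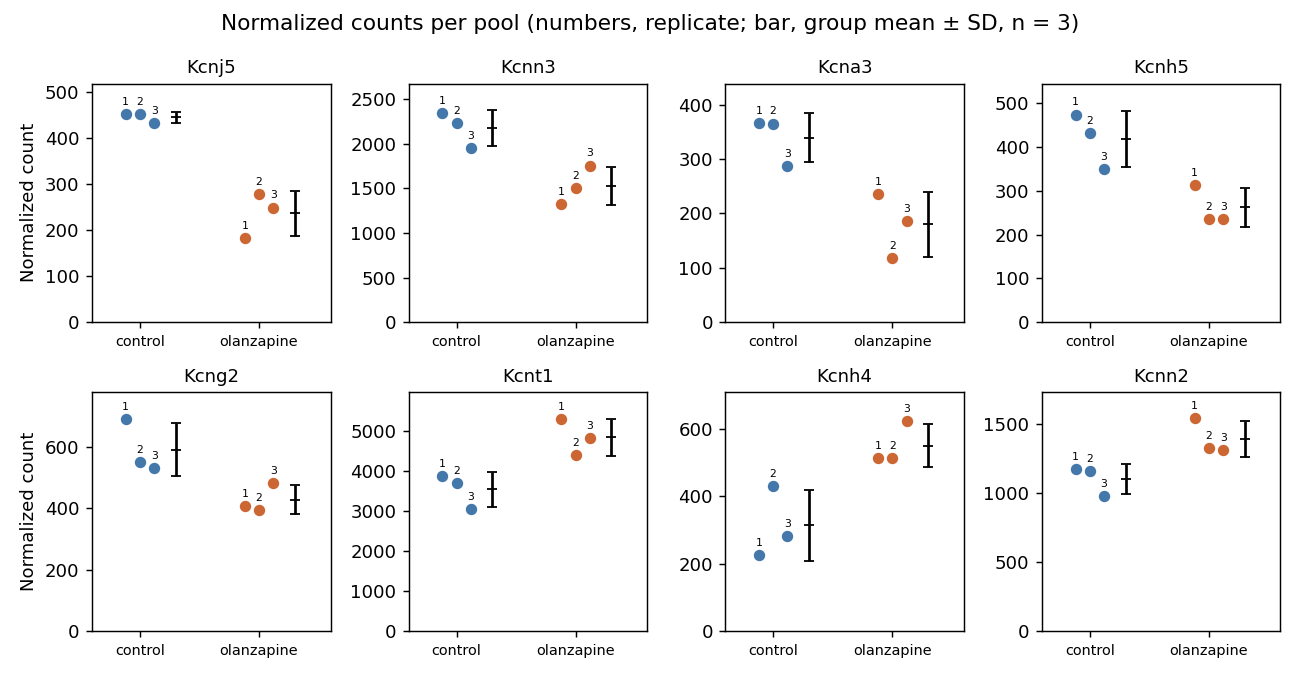
Normalized counts (vertical axis from 0) of 8 potassium channel genes in the 3 control and 3 olanzapine pools, with replicate numbers beside the points and the group mean ± SD as a bar. The groups do not overlap in any of the 8, and Kcnj5 shows the tightest controls beside clearly lower olanzapine pools.

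Among the Shaker-type channels, which open at low voltage along axons, the abundant members did not pass the test. Kcna1 (0.01), Kcna6 (-0.05) and Kcna2 (-0.14) had log2 fold changes near 0 and overlapping groups, at means of 18.2, 17.2 and 11.1 FPKM. Kcna3, the member best known from T cells and microglia and also found in neurons, stood farther from 0. Its normalized counts were 367, 365 and 287 in the controls and 236, 118 and 186 in the olanzapine pools. All olanzapine pools were below all controls, with means of 339.5 ± 45.9 and 179.8 ± 59.5 (SD, n = 3 each), and the gene did not pass the test (log2 fold change -0.92 ± 0.25 SE, adjusted p = 0.12, edgeR). Without olanzapine replicate 1 the log2 fold change was -1.16 (adjusted p = 0.038, edgeR), and DESeq2 on all pools gave an adjusted p of 0.011. The 8 microglia markers summed to 199.7 to 205 FPKM in the controls and 200.2 to 239 FPKM in the olanzapine pools, and among them Cx3cr1 was lower in every olanzapine pool than in any control (log2 fold change -0.19), C1qa (0.27), C1qb (0.29) and Aif1 (0.40) were higher in every one, and the other 4 had overlapping groups. The part of these markers in the value of Kcna3 was not tested. Kcna3 lies at chr3:107036169-107038070, and Kcna2 is 63.1 kb away with a log2 fold change of -0.14, while the neighbouring Kcna10 was near 0 counts throughout.

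The A-type channels and their KChIP partners shape the delay before a spike. Kcnd3 had 4646, 3937 and 3745 normalized counts in the controls and 3784, 2893 and 3127 in the olanzapine pools, so the groups overlapped by a single pool, with a log2 fold change of -0.33 (adjusted p = 0.21, edgeR). Kcnd2 was at 0.03 on the same scale. Of the partners, Kcnip4 had 1916, 1872 and 1785 against 2964, 2431 and 1974 normalized counts, all olanzapine pools above the controls (log2 fold change 0.40 ± 0.14 SE, adjusted p = 0.18, edgeR). The median of the 4 Kcnip genes was 0.26, the highest being Kcnip4 and the only negative one Kcnip1 at -0.09. None of the 4 passed the test. The 3 beta subunits were all above 0 in estimate, from 0.01 in Kcnab1 to 0.37 in Kcnab3, and none passed.

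The delayed rectifier Kcnb2 (-0.18) and the fast channels of the Kcnc family (-0.07 to 0.13) had overlapping groups. Without olanzapine replicate 1 all 4 Kcnc genes were negative in estimate, from -0.31 to -0.13, and their median went from 0.08 to -0.25. The silent subunits, which make no channel alone and modify Kcnb channels, were mixed. Kcng2 had 692, 553 and 531 normalized counts in the controls and 407, 395 and 482 in the olanzapine pools, all lower, with a log2 fold change of -0.47 ± 0.14 (SE, edgeR adjusted p = 0.15). Kcnf1, the most abundant of the silent subunits at 18.9 FPKM, ran from 13.9 to 28.3 FPKM and had its highest and lowest values both within the olanzapine group.

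In the ether-a-go-go family (Kcnh), whose members open near rest and repolarize slowly, the 8 genes ran from -0.68 to 0.81. In 3 of them the groups did not overlap (1 above and 2 below), patterns that 13.3% and 11.0% of all tested genes had. Kcnh5, at chr12:74897220-75177332 on the minus strand, had 475, 432 and 349.9 against 314, 236 and 236 normalized counts. All olanzapine pools were lower (log2 fold change -0.68 ± 0.18 SE, adjusted p = 0.10, edgeR), and without olanzapine replicate 1 the change was -0.83 (adjusted p = 0.042, edgeR). Kcnh2, the family member known from the heart as hERG and here the most abundant at 13.3 FPKM, had 3005, 2787 and 2921 against 2149.6, 2704 and 2131 normalized counts and a log2 fold change of -0.32 (adjusted p = 0.16, edgeR). Kcnh4, at chr11:100740376-100759942 on the minus strand, had 227, 430.4 and 284 against 515, 515 and 624 normalized counts. Every olanzapine pool was above every control, with a log2 fold change of 0.81 ± 0.23 (SE, edgeR adjusted p = 0.12). Kcnh4 is known for its expression in the striatum, and the 8 striatal neuron markers summed to 517, 927 and 703 FPKM in the controls and 544, 1129 and 1066 FPKM in the olanzapine pools. The log2 fold changes of the 8 markers ran from 0.12 (Drd1) to 0.76 (Rgs9), with overlapping groups. Control replicate 2 was the highest control for both Kcnh4 and the marker sum. Olanzapine replicate 1 was above every control in Kcnh4 and within the range of the controls in the marker sum. The part of the striatal markers in the values of Kcnh4 was not tested.

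In the M-current family, whose channels restrain repeated firing, Kcnq3 (0.06) and Kcnq5 (0.15) had overlapping groups. Kcnq3 was at a mean of 9.55 FPKM and Kcnq5 at 4.44 FPKM. None of the 5 Kcnq genes passed the test.

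Among the two-pore leak channels, Kcnk1 (14.5 FPKM) and Kcnk2 (11.9 FPKM) led in level, with log2 fold changes of 0.15 and -0.08. Kcnk9 and Kcnk3, which acid closes, gave 0.04 and 0.14, and Kcnk13 and Kcnk6, both seen in microglia, gave -0.04 and 0.02. The largest estimate of all Kcn genes was that of Kcnk4, a channel opened by stretch and lipids, with 73.9, 56.3 and 77.3 normalized counts in the controls and 353, 82.0 and 75.4 in the olanzapine pools. A single library carried it. Its estimate was 1.30 ± 0.58 (SE, edgeR adjusted p = 0.30) on the log2 scale, and 0.18 without olanzapine replicate 1. Kcnk5, another acid-sensitive member, was scarce, with 33.0, 35.5 and 22.8 normalized counts in the controls and 14.4, 13.8 and 22.1 in the olanzapine pools. Its groups did not overlap by a narrow margin (log2 fold change -0.85, adjusted p = 0.32, edgeR). None of the 10 tested Kcnk genes passed.

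Olanzapine replicate 1 was the highest of the 6 libraries in 42 of the 81 tested Kcn genes, or 51.9%, against 22.8% of all tested genes. No other library was the highest in more than 13 Kcn genes. In 9 of them (Kcnc2, Kcnh3, Kcnh7, Kcnj9, Kcnk4, Kcnmb4, Kcns3 and Kcnv1 among them) its count was over 1.5 times the highest of the other 5 libraries, which was so for 2.83% of all tested genes. Kcnv1, a silent subunit, had 626, 848 and 729.6 normalized counts in the controls and 2619, 846 and 779 in the olanzapine pools. Kcnh3, an ether-a-go-go channel of the forebrain, had 1322, 2068 and 1542 against 3919, 2080.1 and 1783. Kcnh7 had 1063, 1055 and 750.5 against 2433, 703 and 716. In each of these 3 genes the other olanzapine pools sat within the range of the controls or close to it. The 6 cortical glutamatergic markers were likewise highest in olanzapine replicate 1, all 6 of them. General neuronal markers differed among themselves. Of 9, 5 were highest in olanzapine replicate 1, such as Snap25 at 790 FPKM there against 446 to 495 FPKM elsewhere, while Map2 was lowest in olanzapine replicate 2. The 8 that are on no other list summed to 1616 FPKM in olanzapine replicate 1 against 1209 to 1380 FPKM elsewhere. The GABA neuron markers Gad1, Gad2 and Slc32a1 were lowest in olanzapine replicate 1, Gad2 at 58.0 FPKM there against 73.4 to 99.4 FPKM elsewhere. The part of these markers in the Kcn values was not tested.

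Without olanzapine replicate 1, the fit tested 82 Kcn genes, of which 51 had a negative and 31 a positive log2 fold change, with a median of -0.10. Over all genes of that fit 50.3% were negative and the median was -0.0016. The sign differed from that with all pools in 25 genes, Kcnh7 (0.42 to -0.43) and Kcnmb4 (0.44 to -0.10) among them. In that fit 4 genes were called, all lower in the olanzapine group: Kcna3, Kcnh5, Kcnj5 and Kcnj6, and Kcna3 alone also passed the fold change limit. Of all 17687 genes in that fit, 1.11% were called lower. Among the Kcn genes, none was called higher by edgeR in that fit. The remaining olanzapine group then had 2 pools, so these values rest on fewer mice.

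**Figure D4:**
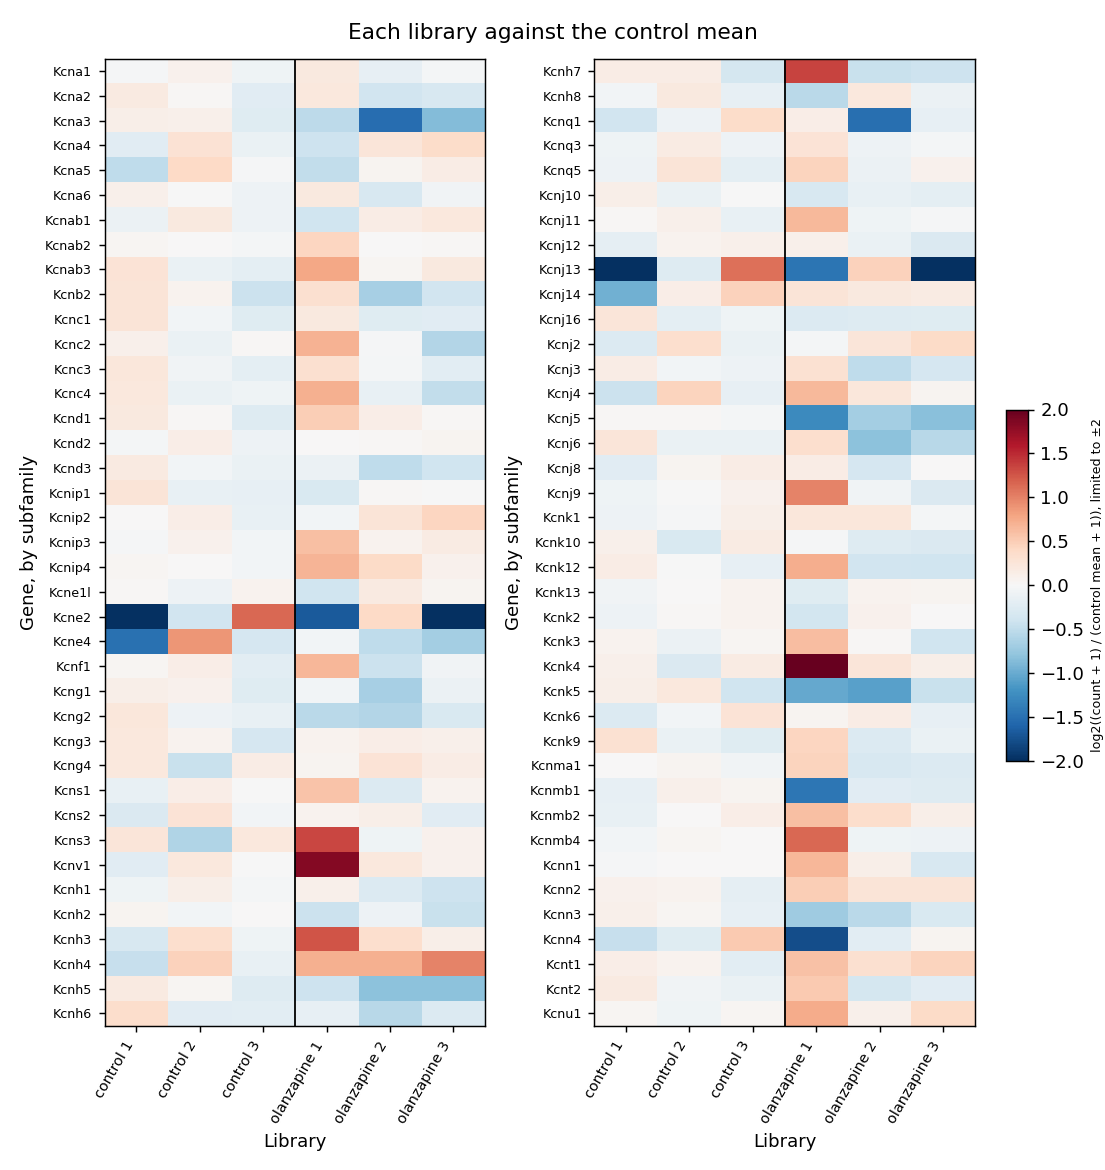
A set of 78 of the 81 tested potassium channel genes in each of the 6 libraries, as log2 of the normalized count plus 1 over the control mean plus 1, with colours limited to 2 in size. The column of olanzapine replicate 1 is strongly positive in Kcnk4, Kcnv1 and Kcnh7, and Kcnj5 is lower in all 3 olanzapine columns.

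The Kcn genes with the widest spread between libraries were Kcnj13 and Kcne2, and both groups held high and low libraries. Kcnj13, the inward rectifier of choroid plexus epithelium, had 32.0, 1660.5 and 4295 normalized counts in the controls and 727, 2754 and 6.03 in the olanzapine pools. Kcne2, an accessory subunit found on the same epithelium, had 8.99, 597 and 1727 against 242, 1020.3 and 3.02. Both genes ranked the libraries in the same order, from control replicate 3 down to olanzapine replicate 3, and the summed choroid plexus markers gave that order too. Their log2 fold changes of -0.78 and -0.88 carried a standard error of 1.49 each (adjusted p = 0.83 and 0.81, edgeR), so neither differed beyond the spread between pools. About 49.1% of the GENCODE exon length of Kcnj13, 1.27 kb, is shared with Gigyf2 on the opposite strand. The length behind its deposited FPKM was 6.22 kb. Without a known strand setting, reads in the shared bases cannot be assigned. The raw count of Kcnj13 was 6 in olanzapine replicate 3 and 32 in control replicate 1. At most that many reads of Gigyf2 can have been counted for Kcnj13 in those libraries. Kcne2 lies at chr16:92292389-92298129 on the plus strand and Kcnj13 at chr1:87386363-87394729 on the minus strand. Kcne1, 47.9 kb from Kcne2, had at most a single count in each library. The part of the choroid plexus markers in these values was not tested.

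**Figure D5:**
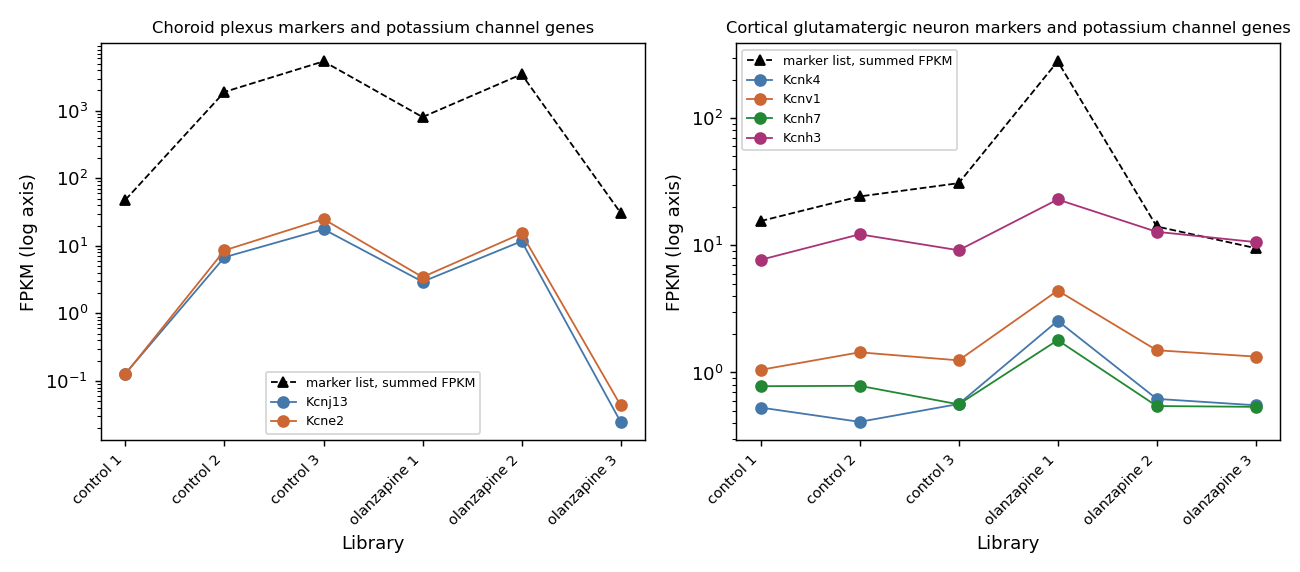
FPKM (log axis) in each of the 6 libraries of the summed choroid plexus markers with Kcnj13 and Kcne2 on the left, and of the summed cortical glutamatergic markers with Kcnk4, Kcnv1, Kcnh7 and Kcnh3 on the right. On the left the lines rise and fall together across both groups, and on the right all lines peak at olanzapine replicate 1.

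The genes that work with potassium channels without bearing the prefix were examined from a list of 27, such as the A-type partners Dpp6 and Dpp10, the ATP-sensitive channel subunits Abcc8 and Abcc9, axonal anchors such as Cntnap2 and Ank3, the calmodulins, and Snx27, a sorting protein of GIRK channels. Of 25 tested, none passed an adjusted p under 0.05 in edgeR, 6 had an unadjusted p under 0.05 (1 higher and 5 lower) beside 17.6% of all tested genes, and DESeq2 called 2 where it called 4.20% of all genes it fitted. Their median log2 fold change was -0.05. Cntnap2, which gathers Shaker channels beside the node of Ranvier, had the smallest adjusted p with a log2 fold change of -0.37 (adjusted p = 0.086, edgeR), followed by Ank3 at -0.33 (adjusted p = 0.14, edgeR). Dpp6 (-0.20), Abcc9 (-0.52) and Snx27 (-0.17) were the other lower ones, and Calm2 (0.20) was the higher one. Abcc9 is a gene of vascular mural cells, and its normalized counts were 341, 347 and 316 in the controls and 302, 201 and 196 in the olanzapine pools. The 7 endothelium markers summed to 31.7 to 37.6 FPKM in the controls and to 37.3, 23.1 and 19.1 FPKM in the olanzapine pools. The 6 mural cell markers summed to 44.1 to 47.4 FPKM and to 56.9, 39.0 and 36.2 FPKM. Of the 6, Pdgfrb (log2 fold change -0.42) and Cspg4 (-0.61) were lower in every olanzapine pool than in any control. Rgs5 was at -0.30, Acta2 at -0.0069, Myh11 at 0.11 and Vtn at 0.17, with overlapping groups. Neither of these lists had a member at 0 throughout or past the test. The part of these markers in the value of Abcc9 was not tested.

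Some Kcn genes sit beside each other, and 12 pairs lie within 200 kb. Neighbours could differ in the sign of their estimates. Kcnj9 and Kcnj10 gave 0.33 and -0.22 on the log2 scale, and Kcnj2 and Kcnj16, with 38.2 kb between them, gave 0.20 and -0.26. Kcnip1 and Kcnmb1 overlap as genes and gave -0.09 and -0.55. In all, 28 Kcn genes share exon bases with another gene, and in Kcna6, Kcnj3 and Kcnj13 the part shared with a single gene was over 25% of the exon length. The shared part of the exon length is not the part of the counts in doubt, which is not known for these genes or for Kcnmb4.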

How the data were processed

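LS tissue was sequenced as 6 paired-end libraries, and samples were grouped by their labels. Per the labels' processing notes and the study's methods, the authors trimmed reads with fastp, aligned them with HISAT2 to mm10 and used HTSeq-count for reads per gene. Versions, annotation and strand setting are not given in the sources used here. The authors deposited raw counts and FPKM per gene, and every per-sample column was used (0 unused).

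Here, counts were normalized with TMM and tested with edgeR 4.0.16 (quasi-likelihood F test, group as the only term) in R 4.3.3, over the 17255 genes passing filterByExpr (minimum count 10, minimum total 15), with Benjamini-Hochberg adjustment over all of them. The study's own choice, DESeq2 (1.42.0 here), and limma 3.58.1 on log2(FPKM + 1) or log2(FPKM + 0.1) were alternatives, beside other scaling, other filters, a replicate block and leaving out each library. A normalized count is the count over the TMM-scaled library size, at the mean library size. With 3 against 3, an exact permutation test cannot go below p = 0.1. The p-values set the difference between the groups against the spread between pools.

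Named genes were those called, the 5 higher and 5 lower genes of smallest p, the most abundant of each subfamily, the 10 most abundant and the cell type markers. A few members are counted but not named or plotted here. Further genes were named after their values were seen. The rule, the marker lists and the partner list were chosen with earlier results of these data known, and olanzapine replicate 1 was singled out after seeing the data. Positions are from GENCODE vM21, and promoters from RefSeq (GRCm38.p6). The script was tested on simulated data.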

Additional observations from a re-analysis of the deposited data

Results flagged for a closer look

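The antisense transcript Kcnq1ot1, left out of the Kcn genes but tested in the same fit over all genes, was higher in the olanzapine libraries. Its counts were 256, 200 and 142 in the controls and 458, 487 and 587 in the olanzapine pools, so the groups did not overlap. The log2 fold change was 1.38 (adjusted p = 0.023, edgeR). It drew attention as a signal outside the Kcn genes that was above the control level. Kcnq1ot1 is a long nuclear RNA that shares exon bases with Kcnq1 on the opposite strand. Kcnq1 itself had 12.0, 14.8 and 20.8 normalized counts in the controls and 17.5, 4.94 and 14.1 in the olanzapine pools. Of the 6 nuclear-retained RNAs examined, 4 were higher in the olanzapine group at an adjusted p under 0.05 (edgeR), and their part in this value was not tested.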

How the results depend on the processing

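The count of Kcn genes called higher was 0 with edgeR, 2 with DESeq2 and 5 at an unadjusted p under 0.05. The count called lower was 1 with edgeR, 4 with DESeq2, 2 with no count filter, 0 with limma at a pseudocount of 0.1 or without an FPKM filter, and 8 at an unadjusted p. Over the 6 fits that leave out a library it ran from 0 to 4, the 4 being without olanzapine replicate 1, and the count past both thresholds ran from 0 to 1. Kcnj5 was called by DESeq2 (adjusted p = 9.99e-05), with RLE or upper-quartile scaling, with either count filter and by limma on log2(FPKM + 1). The 6 genes called by DESeq2 were Kcna3, Kcnh4, Kcnh5, Kcnj5, Kcnn3 and Kcnt1, and over all tested genes DESeq2 called 1093 against 401. Partner genes called were 0 with edgeR, 2 with DESeq2, 1 with limma without a filter, 6 at an unadjusted p, and 0 to 1 over the fits leaving out a library.

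Samples of the same replicate number did not deviate together (correlations of -0.02, 0.07 and -0.25), so the numbers do not pair the pools. With the replicate block, 0 Kcn genes were called lower (Kcnj5 adjusted p = 0.088, edgeR) and 140 of all tested genes were called. The block turned the sign of the log2 fold change of Kcnab1 to -0.0060, of Kcne2 to 0.069, of Kcns2 to 0.0041 and of Kcnj13 to 0.12.

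Subfamily medians moved as follows. Kcnip was 0.17 with limma at a pseudocount of 1, with or without a filter. Kcnmb was -0.049 with limma at a pseudocount of 1, -0.13 at 0.1 and 0.013 without a filter. Kcnn was 0.22 with a mean count of at least 50, where Kcnn4 drops out, and 0.0074 with limma at a pseudocount of 1, with or without a filter. Leaving out a library gave -0.25 to 0.25 for Kcnc, -0.30 to -0.053 for Kcnh, 0.18 to 0.32 for Kcnip, -0.091 to 0.11 for Kcnk, -0.10 to 0.49 for Kcnmb and -0.13 to 0.065 for Kcnn. The mean count filter turned Kcnma1 to 0.0030 and Kcns2 to 0.0036, and limma turned Kcns2 to 0.021 at a pseudocount of 1, with or without a filter, and 0.027 at 0.1.

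Leaving out a library moved the log2 fold change across 0 in 14 of the genes that the naming rule picked, and leaving out olanzapine replicate 1 alone did so in 25 of all Kcn genes. For the 14, the ranges were -0.10 to 0.084 for Kcna1, -0.10 to 0.18 for Kcnab1, -0.23 to 0.076 for Kcnc1, -2.67 to 0.50 for Kcne2, -0.24 to 0.34 for Kcnf1, -0.30 to 0.13 for Kcnma1, -0.10 to 0.65 for Kcnmb4, -0.13 to 0.16 for Kcns2, -0.19 to 0.066 for Kcna6, -0.17 to 0.56 for Kcnj9, -2.45 to 0.48 for Kcnj13, -0.15 to 0.080 for Kcnj8, -0.091 to 0.057 for Kcnk13 and -0.11 to 0.18 for Kcnk6. Kcne2 and Kcnj13 were lowest without olanzapine replicate 2 and highest without control replicate 3. The cause of these shifts was not tested. With levels per GENCODE exon length, chosen after seeing the data, 24 Kcn genes were at 10 or more against 20 with the deposited FPKM, and 6 of the 10 highest genes were shared. Of 830 recomputed values, 742 kept their direction and side of the threshold or moved by less than the spread, 39 changed sign, 33 moved by more, 8 lost a call and 8 gained it. For scarce genes such as Kcnk5 and Kcnn4, depth limits the precision of every value above.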
